A study of Mus musculus with 6 samples.

Results

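The genes described here are those whose symbols start with Kcn, the family name of potassium channel subunits and their partners. They were taken by name from a table of mouse quadriceps transcripts. The table holds 95 such rows under 94 symbols, of 22481 symbols in all. Levels are in FPKM, fragments scaled to transcript length and library size, so that genes can be compared per length. Genes averaging 0.5 FPKM or more across the 6 libraries were tested, which took in 22 Kcn genes and 11659 genes altogether. The 3 libraries called MKO came from mice of the genotype MCK-Cre+/-, Fbxw7 flox/flox, and the 3 called COM from mice that were Fbxw7 flox/flox without Cre. All mice thus carried the floxed allele, and as Cre, driven by the muscle creatine kinase promoter, was present in MKO alone, effects of Cre and of losing Fbxw7 cannot be told apart. FBXW7 is an F-box protein that picks the targets of a ubiquitin ligase. The labels used here give no strain, age, sex or number of animals per library, so p-values measure the spread between these libraries, which may be technical.

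Potassium channels let potassium leave the muscle fibre along its gradient. Voltage-gated channels end each action potential, inward rectifiers and leak channels hold the resting potential, ATP-sensitive channels open when the fibre runs short of energy, and calcium-activated channels answer a rise in calcium. Silent subunits, which form no channel alone, and auxiliary subunits change how the pore opens and closes.

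The targeted gene, Fbxw7, read 4.02, 3.86 and 3.81 FPKM in MKO, against 6.51, 6.23 and 6.36 FPKM in COM (log2 change -0.69, SE 0.118, limma adjusted p = 0.0028). Permuting the 6 libraries exactly gave p = 0.1 for it, two-sided, which is as low as 3 against 3 can go. The libraries held 3150443 to 6704228 estimated fragments in MKO and 8435731 to 11783852 in COM, so low genes rest on fewer fragments in MKO. All 10 markers of skeletal muscle fibres were present and summed to 33397 to 35352 FPKM in MKO and 83311 to 84638 FPKM in COM, with 8 lowered and 1 raised, where 10.1% of all tested genes fell and 24.5% rose. These markers moved unequally, so their sum does not stand for each of them. Among those lowered, log2 changes ran from -1.69 for Tnni2 to -0.30 for Ttn. Myh1 was the one raised (1.13), and Ryr1 was not called (-0.25). In whole muscle, fewer cells of a type and less RNA per cell cannot be told apart.

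The most abundant Kcn transcripts of this muscle were Kcna7, a Shaker-type voltage-gated subunit, Kcnj11, the pore of the ATP-sensitive channel, and Kcnc4, a Shaw-type subunit of fast repolarisation. These 3 together made up 45.2% to 50.0% in MKO and 58.2% to 59.4% in COM of the summed Kcn FPKM. Kcna7 was the highest in both groups, and its libraries did not overlap those of the next gene in either. In MKO the order went on with Kcnc4 and Kcnj11, whose libraries overlapped, and then Kcnc1 and Kcnj12, which also overlapped. In COM it went on with Kcnj11 and Kcnc4, which overlapped, then Kcnj12 and, lower, Kcng4. Kcnc1 had rank 4 in MKO and rank 8 in COM, and Kcnma1 rank 6 in MKO and rank 12 in COM. Of the 22 tested genes 4 averaged 10 FPKM or more and 14 averaged 2 FPKM or more. Those just inside the filter were Kcnk6 at a mean of 0.624 and Kcnab2 at 0.672 FPKM, and those just outside it Kcna1 at 0.448 and Kcne4 at 0.447 FPKM.

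**Figure D1:**
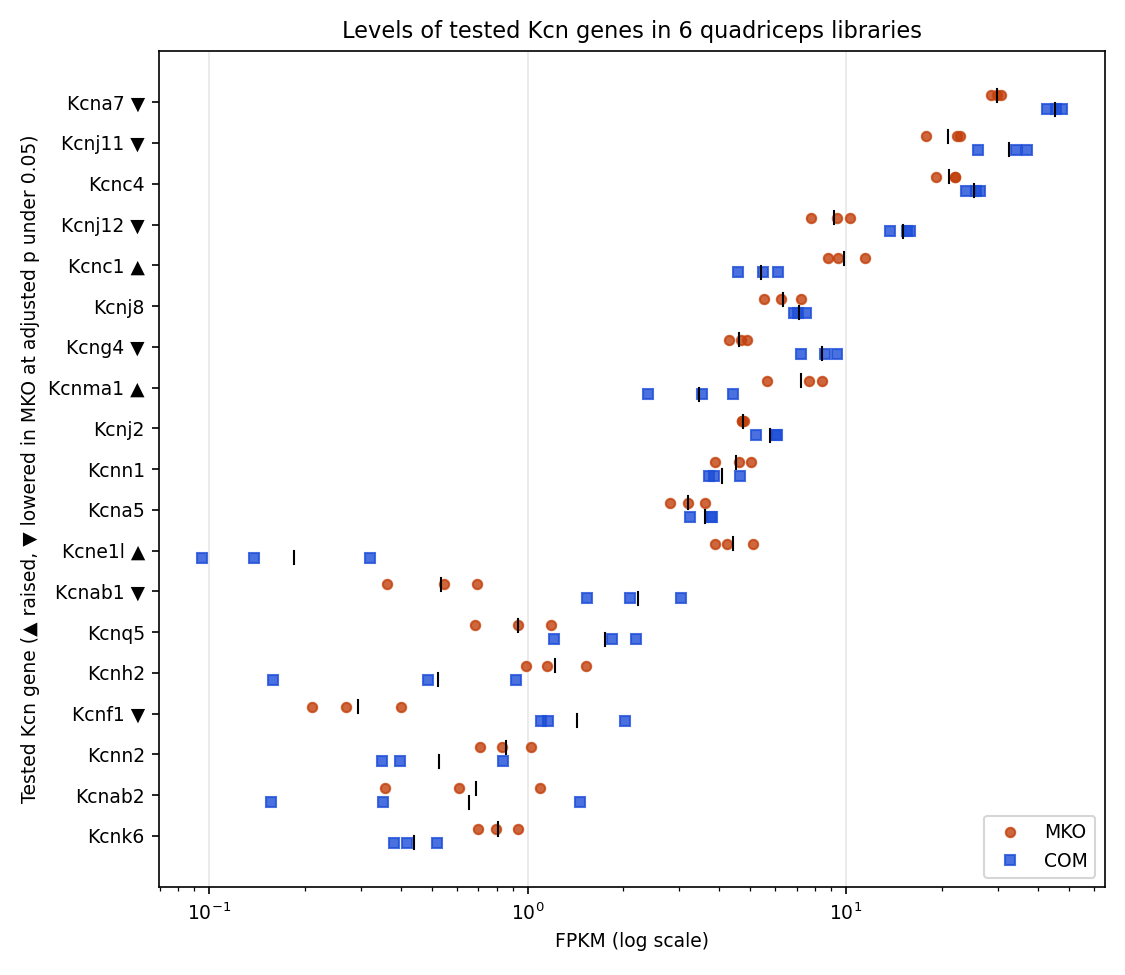
FPKM of 19 of the 22 tested Kcn genes on a log axis, with a point for each of the 3 MKO and 3 COM libraries and a tick at each group mean. Kcne1l lies between 3.89 and 5.10 FPKM in MKO and between 0.0953 and 0.319 FPKM in COM, and Kcna7 leads in both groups.

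Of the 22 tested Kcn genes, 10 differed between MKO and COM at a limma adjusted p under 0.05, where 34.6% of all tested genes did. In MKO 4 of 22 rose, Kcne1l, Kcnma1 and Kcnc1 among them, where 24.5% of all tested genes rose. Kcna7, Kcnj11, Kcnj12, Kcng4, Kcnab1 and Kcnf1 fell, 6 of 22, where 10.1% of all tested genes fell. Kcne1l and Kcnma1 rose by at least 1 on the log2 scale, as did 7.15% of all tested genes, and Kcnab1 and Kcnf1 fell by as much, as did 2.37%. The libraries of 15 Kcn genes did not overlap between groups, 6 with MKO above COM and 9 with MKO below, where 49.8% of all tested genes showed no overlap, 35.7% with MKO above and 14% with MKO below. The median log2 change of the Kcn genes was -0.02, beside 0.21 for all tested genes. Under median-of-ratios scaling, which centres the typical gene, these medians were -0.21 and 0.011, with 3 Kcn genes raised (14.8% of all tested genes) and 9 lowered (17.3%). Under quantile normalization 3 were raised (14.7% of all) and 9 lowered (14.5%). Kcne1l and Kcnk6 had COM means under 0.5 FPKM and Kcnf1 an MKO mean under it, so these 3 passed the filter through their higher group.

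**Figure D2:**
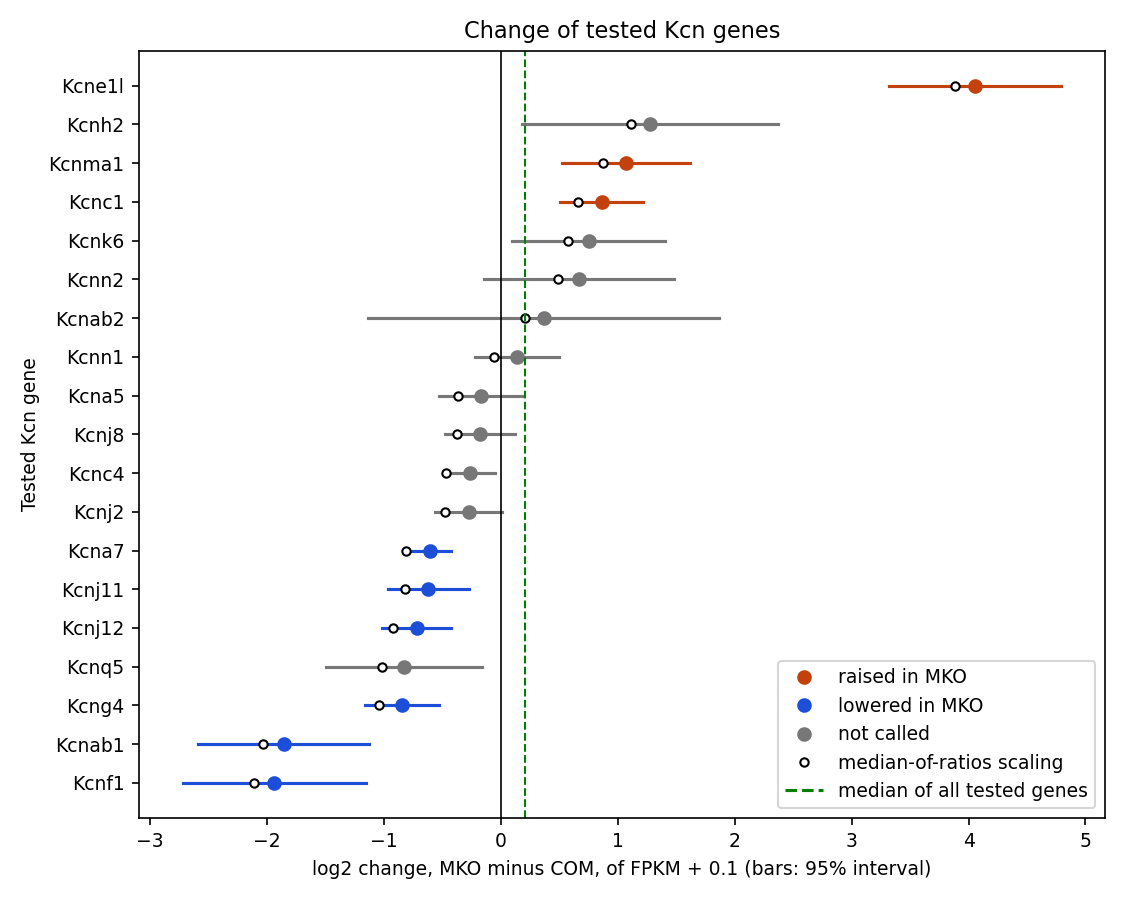
The log2 change (MKO minus COM, of FPKM + 0.1) of 19 tested Kcn genes, each with its 95% interval, coloured by call; open circles give the change after median-of-ratios scaling and the dashed line the median of all tested genes, 0.21. Changes run from 4.05 for Kcne1l to -1.94 for Kcnf1.

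Among the tested Kcn genes, the largest log2 changes were those of auxiliary and silent subunits, with Kcne1l higher and Kcnab1 and Kcnf1 lower in MKO. Kcne1l (ENSMUSG00000090122, mm10 chromosome X, 142304752 to 142306294, minus strand; Kcne5 among the table's synonyms, and described there as a pseudogene although typed as protein-coding) belongs to the KCNE genes, whose small single-span proteins modify voltage-gated pores. Kcnab1 (ENSMUSG00000027827, mm10 chromosome 3, 65109384 to 65378223, plus strand) encodes a cytoplasmic beta subunit that speeds the inactivation of Shaker channels. Kcnf1 (ENSMUSG00000051726, mm10 chromosome 12, 17172100 to 17176888, minus strand) encodes a silent subunit that joins voltage-gated pores. Their promoters are shown because these genes changed most among the tested Kcn genes, while Kcnip2 and Kcnj14, under the filter, had larger log2 changes than Kcnab1 and Kcnf1 in a fit without it. RefSeq windows of 250 bases before the start, on GRCm38.p6, matched 16 of the 22 tested genes, and capitals mark each E-box (CANNTG, which reads alike in form on both strands), the core that myogenic and other basic helix-loop-helix factors bind. Only bases outside annotated exons are printed, namely chrX:142306295-142306448 (154 bases, minus strand) for Kcne1l, chr3:65108764-65109013 (plus strand) for Kcnab1 and chr12:17176889-17177138 (minus strand) for Kcnf1, each 5′ to 3′.
Kcne1l: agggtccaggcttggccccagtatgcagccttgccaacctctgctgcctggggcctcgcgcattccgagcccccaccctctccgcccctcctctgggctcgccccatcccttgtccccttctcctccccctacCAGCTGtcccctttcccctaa
Kcnab1: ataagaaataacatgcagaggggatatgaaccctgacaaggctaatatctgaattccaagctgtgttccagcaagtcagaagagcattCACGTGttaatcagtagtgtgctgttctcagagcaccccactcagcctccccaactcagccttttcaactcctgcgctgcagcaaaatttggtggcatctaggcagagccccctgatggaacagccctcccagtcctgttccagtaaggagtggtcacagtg
Kcnf1: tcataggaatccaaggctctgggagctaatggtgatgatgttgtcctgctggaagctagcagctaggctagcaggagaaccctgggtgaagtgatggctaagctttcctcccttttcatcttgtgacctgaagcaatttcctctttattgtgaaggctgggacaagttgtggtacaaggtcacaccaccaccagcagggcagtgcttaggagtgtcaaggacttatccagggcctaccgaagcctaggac
Not every window lies at the start of the gene's principal annotated transcript. The start used was 43240 bases from it for Kcnj12, 22013 for Kcnh2 and 1180 for Kcnc1. For Kcne1l, Kcnab1 and Kcnf1 the distance was 96, 370 and 0 bases. The windows of Kcna7, Kcnab2, Kcnc4, Kcnma1 and Kcnq5 lie wholly within annotated exons. With these included, an E-box of any form occurred in 11 of the 16 windows and in 66.2% of all 32851 windows of that length. The Kcne1l window holds a single E-box, CAGCTG, a form found in 4 of the 16 windows and in 13.0% of all windows. Kcng4, Kcnj2 and Kcnn1 carry that form too. The Kcnab1 window holds a single CACGTG, found in 2 of the 16, also in Kcnj2, and in 6.02% of all windows. The Kcnf1 window holds no E-box. Neither TATAAA, found in 12.4% of all windows, nor the MEF2 consensus, found in 2.92%, occurred on either strand of the 16. Over its full 250 bases the Kcne1l window was 68.0% G or C, against 50.0% for Kcnab1, 51.2% for Kcnf1 and a median of 52.4% over all windows.

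Kcne1l read 4.22, 5.10 and 3.89 FPKM in MKO, against 0.0953, 0.139 and 0.319 FPKM in COM. Every MKO library was well above the COM libraries, which were close to the limit of detection. Estimated fragments were 24, 72 and 43 in MKO and 2, 3 and 5 in COM. The mean was 23.9-fold higher in MKO (log2 change 4.05, SE 0.322, limma adjusted p = 4.94e-05), and the log2 change was 2.19 with a pseudocount of 1 FPKM. By size of log2 change it ranked 36 of 11659. Kcne1l supplied 88.9% to 91.1% in MKO and 13.7% to 36.2% in COM of the summed FPKM of the KCNE genes. Acsl4, an acyl-CoA synthetase gene 11699 bases upstream on the same strand, read 10.1, 8.02 and 8.27 FPKM in MKO, against 4.16, 4.98 and 2.79 FPKM in COM, without overlap, and rose too (log2 change 1.16, limma adjusted p = 0.00389). Its part in the Kcne1l value was not tested.

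Kcnab1 read 0.362, 0.545 and 0.696 FPKM in MKO, against 2.10, 3.02 and 1.53 FPKM in COM. The groups did not overlap, and the values rest on 35 estimated fragments in MKO and 230 in COM. Kcnab1 fell 4.15-fold (log2 change -1.85, SE 0.320, limma adjusted p = 0.00296), with a log2 change of -1.05 at a pseudocount of 1 FPKM. An antisense gene, A330015K06Rik, overlaps 201 bases of its exons, and since strand use in counting is not stated, their signals cannot be told apart. Kcnab2, the other tested beta subunit, varied widely within both groups, at 1.10, 0.608 and 0.358 FPKM in MKO, against 0.352, 1.46 and 0.157 FPKM in COM. The difference was not called (log2 change 0.37, 95% interval -1.13 to 1.87, limma adjusted p = 0.693). These Kcnab2 values rest on 35 estimated fragments in MKO and 33 in COM.

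The silent subunits Kcnf1 and Kcng4 both fell. Kcnf1 read 0.211, 0.401 and 0.269 FPKM in MKO, against 2.02, 1.16 and 1.10 FPKM in COM. The groups were far apart, on 33 estimated fragments in MKO and 285 in COM. Kcnf1 fell 4.86-fold (log2 change -1.94, SE 0.343, limma adjusted p = 0.00341), with a log2 change of -0.89 at a pseudocount of 1 FPKM. Kcng4 (ENSMUSG00000045246, mm10 chromosome 8, 119623854 to 119635680, minus strand), the more abundant of the pair, read 4.88, 4.28 and 4.68 FPKM in MKO, against 8.60, 9.38 and 7.20 FPKM in COM. Its groups did not overlap, and it fell 1.82-fold (log2 change -0.84, SE 0.138, limma adjusted p = 0.00228). Amigo1, a membrane protein that accompanies voltage-gated potassium channels, fell to 6.38 ± 0.217 FPKM in MKO, against 8.73 ± 0.748 FPKM in COM (SD, n = 3; log2 change -0.45, limma adjusted p = 0.0186).

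Among Shaker-type pores Kcna7 fell. Kcna7 (ENSMUSG00000038201, mm10 chromosome 7, 45405653 to 45409763, plus strand), known from skeletal muscle and heart, read 30.6, 29.9 and 28.6 FPKM in MKO, against 45.6, 47.6 and 42.8 FPKM in COM. Both groups were tight and well apart. The mean was 1.53-fold lower in MKO (log2 change -0.61, SE 0.0786, limma adjusted p = 6.93e-04), and the call held in all 18 alternative settings, with log2 changes from -0.81 to -0.57. Kcna5, a Shaker subunit known from cardiac and vascular muscle, averaged 3.20 ± 0.410 FPKM in MKO and 3.60 ± 0.310 FPKM in COM (SD, n = 3 here and below). Its groups overlapped (log2 change -0.17, 95% interval -0.53 to 0.19, limma adjusted p = 0.431).

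Of the Shaw-type pores, which open and close fast and shorten action potentials, Kcnc1 rose and Kcnc4 was not called. Kcnc1 (ENSMUSG00000058975, mm10 chromosome 7, 46396497 to 46438704, plus strand) read 9.44, 11.4 and 8.78 FPKM in MKO, against 6.13, 5.49 and 4.57 FPKM in COM. All MKO libraries lay above all COM libraries. Kcnc1 rose 1.83-fold (log2 change 0.86, SE 0.154, limma adjusted p = 0.00356), with log2 changes from 0.64 to 0.98 over the alternatives, each called. Kcnc4, the most abundant Shaw gene, read 19.1, 21.9 and 22.0 FPKM in MKO, against 25.6, 26.3 and 23.8 FPKM in COM. These groups did not overlap either, yet the difference missed the threshold (log2 change -0.26, 95% interval -0.48 to -0.048, limma adjusted p = 0.0601). Kcnc4 was called lowered under median-of-ratios scaling (log2 change -0.47, adjusted p = 0.00262) and quantile normalization (-0.35, adjusted p = 0.0123).

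Kcnq5, a KCNQ pore of the kind that carries slow currents that do not inactivate, read 0.685, 1.19 and 0.933 FPKM in MKO, against 2.18, 1.84 and 1.21 FPKM in COM. The lowest COM library lay just above the highest MKO library, without a call (log2 change -0.83, 95% interval -1.49 to -0.16, limma adjusted p = 0.0574). It was called lowered under both scalings (adjusted p = 0.0215 and 0.0113), on the scaled signal columns (adjusted p = 0.00958) and without COM 3 (adjusted p = 0.0348).

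Kcnh2, the ERG pore of cardiac repolarisation, averaged 1.22 ± 0.272 FPKM in MKO and 0.522 ± 0.383 FPKM in COM from 41 estimated fragments in MKO and 32 in COM. Its groups did not overlap and the difference was not called (log2 change 1.28, 95% interval 0.19 to 2.37, limma adjusted p = 0.0689). It was called raised without COM 1 (log2 change 1.74, adjusted p = 0.0246) and on the scaled signal columns (adjusted p = 0.0108). The ratio of that signal to FPKM, which follows the transcript length assigned by the authors' software, spanned 2.19-fold between libraries for Kcnh2, 2.11-fold for Kcnn2 and 4.34-fold for Kcnab2, and at most 1.42-fold, in Kcnab1, for the other tested Kcn genes.

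Of the 4 tested inward rectifiers, Kcnj11 and Kcnj12 fell and neither of the others was called. Kcnj11 (ENSMUSG00000096146, mm10 chromosome 7, 46093953 to 46100764, minus strand) read 22.3, 17.8 and 22.8 FPKM in MKO, against 37.1, 34.2 and 26.0 FPKM in COM. COM 3 lay closest to the MKO libraries. Kcnj11 fell 1.55-fold (log2 change -0.62, SE 0.151, limma adjusted p = 0.014), a call that ended at a threshold of 0.01 and without COM 1 (adjusted p = 0.0507) or COM 2 (adjusted p = 0.0504). Kcnj12, a strong inward rectifier of the resting fibre, read 9.37, 10.3 and 7.76 FPKM in MKO, against 15.9, 15.5 and 13.7 FPKM in COM. Its groups were well apart, and it fell 1.65-fold (log2 change -0.72, SE 0.130, limma adjusted p = 0.00378), a call kept in all 18 alternatives. Kcnj2, its close relative, averaged 4.74 ± 0.0526 FPKM in MKO and 5.77 ± 0.476 FPKM in COM, without overlap or call (log2 change -0.27, 95% interval -0.56 to 0.0098, limma adjusted p = 0.12). It was called lowered under median-of-ratios scaling (log2 change -0.47, adjusted p = 0.0101) and quantile normalization (-0.53, adjusted p = 0.00691).

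ATP-sensitive channels pair a Kcnj11 or Kcnj8 pore with a sulfonylurea receptor, encoded by Abcc8 or Abcc9. On the chromosome Abcc8 lies beside Kcnj11 and Abcc9 beside Kcnj8, each on the same strand. This position does not tell which pore and receptor join in a channel. Kcnj8, the pore known from vessel wall cells, read 7.20, 6.27 and 5.54 FPKM in MKO, against 7.07, 7.47 and 6.87 FPKM in COM. The groups overlapped (log2 change -0.18, 95% interval -0.48 to 0.12, limma adjusted p = 0.328). The receptor gene Abcc9, 16248 bases from Kcnj8, averaged 17.7 ± 0.719 FPKM in MKO and 20.4 ± 3.15 FPKM in COM and was not called (log2 change -0.20, limma adjusted p = 0.243). The other receptor gene, Abcc8, 3759 bases from Kcnj11, was under the filter at 0.207 ± 0.0255 FPKM in MKO and 0.349 ± 0.00671 FPKM in COM. Kcnj11 made up 74.0% to 80.4% in MKO and 79.1% to 84.0% in COM of the FPKM of both pores, ranges that overlap.

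Among calcium-activated channels Kcnma1, the large-conductance (BK) pore opened by voltage and calcium together, rose. Kcnma1 (ENSMUSG00000063142, mm10 chromosome 14, 23289431 to 24014491, minus strand) read 7.63, 8.41 and 5.66 FPKM in MKO, against 4.42, 3.54 and 2.39 FPKM in COM. All MKO libraries were higher than any COM library, though the spread within each group was broad. The mean was 2.10-fold higher in MKO (log2 change 1.07, SE 0.239, limma adjusted p = 0.00977), and the call held in all 18 alternatives, with log2 changes from 0.81 to 1.27. As in 8 tested Kcn genes in all, another annotated gene shares exon sequence, here 4930519K11Rik on the opposite strand, over 1016 bases. No BK beta subunit reached the filter. Of the BK gamma subunit genes, Lrrc52 rose to 8.54 ± 0.515 FPKM in MKO, against 4.72 ± 1.17 FPKM in COM (log2 change 0.87, limma adjusted p = 0.00863). Lrrc38 fell to 1.98 ± 0.124 FPKM in MKO, against 9.91 ± 0.174 FPKM in COM (log2 change -2.27, limma adjusted p = 7.75e-06). The small-conductance channel Kcnn1 averaged 4.51 ± 0.579 FPKM in MKO and 4.08 ± 0.498 FPKM in COM and was not called (log2 change 0.14, 95% interval -0.22 to 0.50, limma adjusted p = 0.514). Kcnn2, of the same kind, averaged 0.855 ± 0.159 FPKM in MKO and 0.529 ± 0.268 FPKM in COM and was not called (log2 change 0.67, 95% interval -0.15 to 1.48, limma adjusted p = 0.177).

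The tandem-pore leak channels, which set background permeability, had Kcnk6 alone above the filter. It read 0.930, 0.795 and 0.698 FPKM in MKO, against 0.519, 0.419 and 0.381 FPKM in COM, from 69 estimated fragments in MKO and 74 in COM. The groups did not overlap, without a call (log2 change 0.75, 95% interval 0.094 to 1.41, limma adjusted p = 0.074). It was called raised without the mean-variance trend (adjusted p = 0.0135) and on the scaled signal columns (adjusted p = 0.0236).

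Summed over all 94 Kcn genes, the level was 151, 154 and 147 FPKM in MKO, against 186, 185 and 156 FPKM in COM, so that COM 3 came close to the MKO libraries. The inward rectifiers contributed 44.6, 40.2 and 41.8 FPKM in MKO, against 66.4, 63.5 and 52.0 FPKM in COM, or 26.1% to 29.6% in MKO and 33.3% to 35.7% in COM of the sum, without overlap. Voltage-gated pores contributed 75.0, 81.9 and 77.3 FPKM in MKO, against 93.6, 93.7 and 84.1 FPKM in COM, with shares that overlapped (49.8% to 53.2% in MKO and 50.3% to 53.9% in COM). Calcium- or sodium-activated pores held a larger share in each MKO library, 8.48% to 10.2% in MKO and 4.63% to 5.29% in COM. Tandem-pore subunits summed to 2.08 to 3.18 FPKM in MKO and 1.10 to 1.24 FPKM in COM. By class, 2 of 9 tested voltage-gated pores rose and 1 fell, 1 of 5 auxiliary or silent subunits rose and 3 fell, 2 of 4 inward rectifiers fell, and 1 of 3 calcium-activated pores rose, where 24.5% of all tested genes rose and 10.1% fell.

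**Figure D3:**
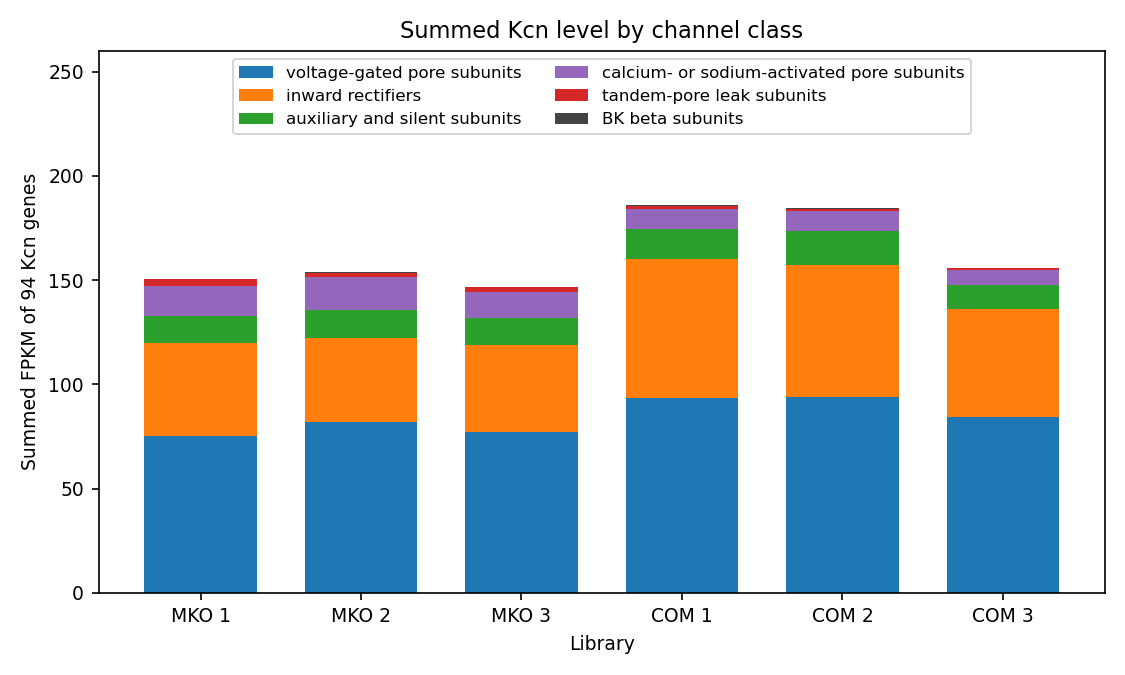
Summed FPKM of the 94 Kcn genes in each library, stacked by channel class. The totals are 147 to 154 FPKM in MKO and 156 to 186 FPKM in COM, and the inward rectifier layer is thinner in each MKO library than in each COM library.

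The other 72 Kcn genes were under the filter, 18 of them listed at 0 in all 6 libraries and 27 with a mean of at least 0.1 FPKM. Of the 54 above 0 somewhere, 44 had the higher mean in MKO (81.5%), where 65.5% of all 4885 untested genes above 0 did. Of these low genes 4 reached a group mean of 0.5 FPKM, each in MKO. Kcnn3, a small-conductance channel known to appear in denervated muscle, read 0.984, 0.825 and 0.450 FPKM in MKO, against 0.101, 0.116 and 0.158 FPKM in COM. Every MKO library lay above every COM library. Kcnk2, a mechanically gated leak channel, read 0.751, 0.572 and 0.448 FPKM in MKO, against 0.162, 0.304 and 0.264 FPKM in COM, likewise without overlap. Kcnip2, a calcium-binding partner of Shal channels, read 0.301, 0.371 and 1.06 FPKM in MKO and was listed at 0 in COM 1 and COM 2 and at 0.0412 FPKM in COM 3. Its Shal pores Kcnd1, Kcnd2 and Kcnd3 all averaged under 0.1 FPKM. Kcna1, a Shaker channel of myelinated nerve, averaged 0.528 ± 0.118 FPKM in MKO and 0.368 ± 0.0289 FPKM in COM, without overlap. Kcne4, just under the filter, averaged 0.458 ± 0.0752 FPKM in MKO and 0.436 ± 0.0771 FPKM in COM, with overlap.

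A fit without the filter, over 16544 genes, called 7 of the 54 low Kcn genes above 0 raised and none lowered. Of all its genes 16.5% were called raised and 6.61% lowered. Those shares include the 11659 genes above the filter, and the share among low genes alone was not computed. The 7 called were Kcnn3 (log2 change 1.87, limma adjusted p = 0.00902), Kcnj14 (2.22, adjusted p = 6.92e-04), and Kcnip2, Kcng2, Kcng1, Kcnk2 and Kcnk5, with log2 changes from 0.89 to 2.43 and adjusted p from 0.0119 to 0.0486. Kcnj14, an inward rectifier, was listed at 0 in every COM library and read 0.391, 0.313 and 0.40 FPKM in MKO. These 7 rest on 15 to 43 estimated fragments each in MKO.

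**Figure D4:**
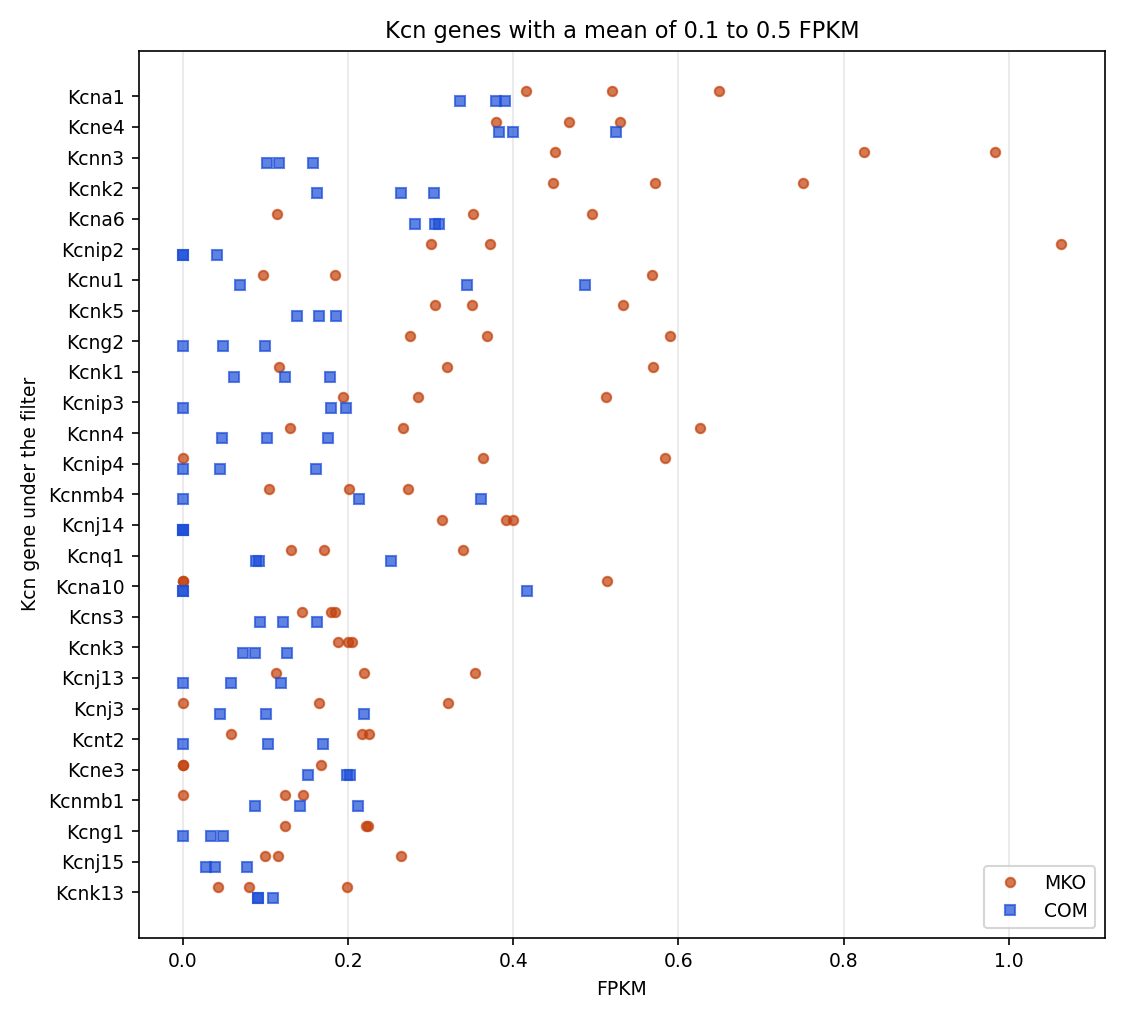
FPKM of the 27 Kcn genes with means between 0.1 and 0.5 FPKM, with a point for each of the 3 MKO and 3 COM libraries. Kcnn3, Kcnk2 and Kcnj14 lie higher in all MKO libraries than in any COM library, and Kcnip2 reaches 1.06 FPKM in MKO 3.

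Genes that work beside these channels were read from 4 lists. Of 8 tested sodium, chloride and calcium channel genes of the fibre's action potential and its coupling to contraction, 5 fell and none rose (median log2 change -0.61, beside 0.21 for all tested genes, of which 24.5% rose and 10.1% fell). Cacng1, a calcium channel subunit, fell to 77.7 ± 2.31 FPKM in MKO, against 184 ± 13.2 FPKM in COM. The chloride channel Clcn1 fell to 21.4 ± 1.80 FPKM in MKO, against 43.8 ± 4.51 FPKM in COM, and the calcium channel pore Cacna1s to 82.7 ± 3.88 FPKM in MKO, against 129 ± 6.07 FPKM in COM. The list of potassium pumps and carriers also held regulators and relatives of the pump. Of its 14 tested genes 6 rose and none fell, where 24.5% of all tested genes rose and 10.1% fell. Their median log2 change was 0.23, close to the 0.21 of all tested genes. Atp1b4, a muscle relative of the sodium pump's beta subunits, rose to 7.65 ± 0.602 FPKM in MKO, against 1.15 ± 0.181 FPKM in COM. The carrier Slc12a4, which moves potassium with chloride, rose to 6.75 ± 1.28 FPKM in MKO, against 2.79 ± 0.177 FPKM in COM, and Fxyd5, of the FXYD family that regulates the pump, to 31.0 ± 3.92 FPKM in MKO, against 23.2 ± 1.58 FPKM in COM. Of 10 tested channel partners and related channels, 2 rose and 3 fell (median log2 change 0.013, beside 0.21 for all tested genes), where 24.5% of all tested genes rose and 10.1% fell. Besides Lrrc52, Lrrc38 and Amigo1, the last named after its values were seen, these were Cnga3, a cyclic nucleotide-gated channel that rose to 1.05 ± 0.183 FPKM in MKO, against 0.281 ± 0.0546 FPKM in COM, and Tmem38a, a cation channel of the sarcoplasmic reticulum that fell to 288 ± 16.6 FPKM in MKO, against 545 ± 25.7 FPKM in COM.

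Of 11 tested genes of the response to denervation, 9 rose and 2 fell (median log2 change 0.71, beside 0.21 for all tested genes), where 24.5% of all tested genes rose and 10.1% fell. Ankrd1, a stress-responsive ankyrin repeat gene, rose to 85.8 ± 4.62 FPKM in MKO, against 14.4 ± 0.935 FPKM in COM. The transcription factor gene Runx1 rose to 2.32 ± 0.451 FPKM in MKO, against 0.482 ± 0.111 FPKM in COM, and the neural adhesion gene Ncam1 to 5.58 ± 0.856 FPKM in MKO, against 1.03 ± 0.435 FPKM in COM. The embryonic myosin gene Myh3 fell to 0.821 ± 0.174 FPKM in MKO, against 4.20 ± 0.490 FPKM in COM.

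Several Kcn genes are also expressed outside the fibre, and the markers of those cells moved as follows, their part in the Kcn differences not tested. The counts of markers called stand beside 24.5% of all tested genes raised and 10.1% lowered. Schwann cell and nerve markers summed to 122 to 133 FPKM in MKO and 81.1 to 89.6 FPKM in COM, with 5 of 9 tested raised. Neuron markers summed to 1.82 to 2.80 FPKM in MKO and 0.569 to 0.921 FPKM in COM, with Chat at 0 in all libraries and 1 of 10 tested, which was not called. Smooth muscle and pericyte markers summed to 1298 to 1438 FPKM in MKO and 1032 to 1101 FPKM in COM, with 1 of 10 raised, Des, which fibres also express, and 3 lowered. Des supplied most of that sum, and the other 9 summed lower in MKO, to 144 to 149 FPKM in MKO and 159.6 to 169 FPKM in COM. Myh11, a defining smooth muscle gene, averaged 4.58 ± 0.184 FPKM in MKO and 4.98 ± 0.252 FPKM in COM, and the pericyte marker Rgs5 57.1 ± 2.60 FPKM in MKO and 56.0 ± 4.81 FPKM in COM, neither called. Endothelial markers summed to 111 to 124 FPKM in MKO and 124 to 129.5 FPKM in COM, with 1 of 10 lowered, and without the most abundant, Egfl7, to 80.6 to 93.0 FPKM in MKO and 87.4 to 92.4 FPKM in COM, which overlap. T cell markers summed to 12.1 to 18.1 FPKM in MKO and 0.386 to 0.968 FPKM in COM, with all 5 tested raised. B cell markers summed to 22.2 to 24.1 FPKM in MKO and 0.0855 to 0.231 FPKM in COM, with all 7 tested raised. Every tested T cell and B cell marker had a COM mean under 0.5 FPKM and passed the filter through MKO. The counts raised in these lists were thus largely fixed by the filter and cannot be set against the share of all tested genes. Kcnn4, a channel known from lymphocytes, read 0.130, 0.626 and 0.266 FPKM in MKO, against 0.176, 0.102 and 0.0471 FPKM in COM, with overlap. Macrophage markers (182 to 209 FPKM in MKO and 153 to 175 FPKM in COM) had 3 of 9 raised and adipocyte markers (475 to 539.8 FPKM in MKO and 414 to 429 FPKM in COM) 7 of 8. Without the most abundant, Fabp4, which was not called, the adipocyte markers summed to 185 to 194 FPKM in MKO and 82.6 to 92.1 FPKM in COM. Fibroblast markers (664 to 743 FPKM in MKO and 582 to 617 FPKM in COM) had 6 of 10 raised and 1 lowered, and red cell markers (152 to 185 FPKM in MKO and 219 to 266 FPKM in COM) 3 of 5 lowered.

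**Figure D5:**
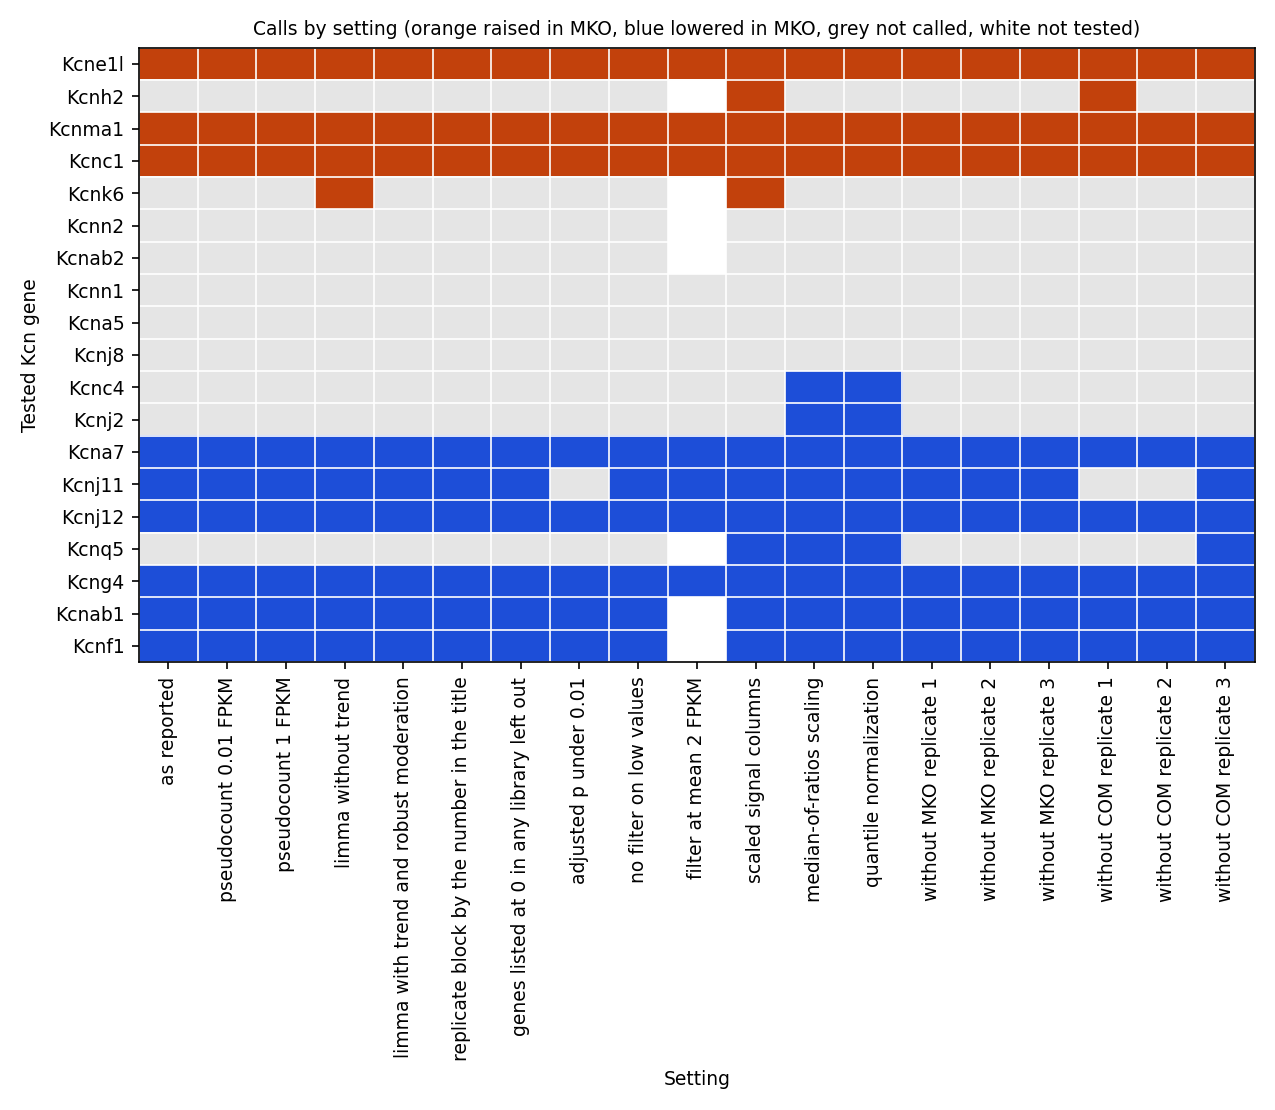
Call of 19 tested Kcn genes as reported and under each of 18 alternative settings, coloured where raised or lowered in MKO, grey where not called and white where the stricter filter left the gene untested. Of the 9 called genes drawn, 8 keep their colour wherever tested, Kcnj11 turns grey in 3 settings, and 5 genes that are grey as reported are coloured in at least 1 setting.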

How the data were processed

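RNA of frozen quadriceps was freed of ribosomal RNA and made into stranded libraries, per the labels' protocols. The submitters' processing notes name cutadapt 1.9.3, HISAT2 2.0.4, Cufflinks and Cuffdiff, and the mm10 build. The authors deposited FPKM for 22564 gene rows. Neither the scaling between libraries nor the use of strand in counting is stated by these sources. Further deposited columns hold a scaled signal, which is an estimated number of fragments times 1 constant per library. In each library 92.6% to 94.1% of its values were whole multiples within 0.1. It gave the estimated fragments and served as an alternative, with no count test.

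Rows were summed by symbol. Levels were compared on log2(FPKM + 0.1), MKO minus COM, with limma 3.58.1 in R 4.3.3, using a mean-variance trend and Benjamini-Hochberg adjustment over all 11659 genes that passed the filter, at 0.05. The fit was also run on simulated data with few changed genes and no shift of the typical gene. These data differ in both, so that run does not vouch for the calls. Log2 changes of low genes are understated by the pseudocount; folds are ratios of group means. Positions are from GENCODE M21, matched by Ensembl identifier, and promoters from RefSeq. The members and lists were chosen with earlier results of these data known. Of the tested Kcn genes, 19 are named and 3 are not reported here one by one, although they stay in every fit, count and sum. Given are values in each library for those called with a log2 change of at least 1, for the 6 with the highest mean, and for some others chosen after their values were seen. Untested Kcn genes are named where a group mean reached 0.5 FPKM or the mean lay between 0.4 and 0.5 FPKM, and some others after their values were seen. Partner lists are shown by members among the 4 called with the smallest p. The 18 alternatives cover pseudocounts, filters, scaling, moderation, a replicate block, the threshold, the signal columns, genes listed at 0 and each library left out.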

Additional observations from a re-analysis of the deposited data

How the results depend on the processing

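Of 9 calls named above, 8 held in every alternative that tested them, and Kcnj11, with values given above, did not. Of 10 named genes not called, 5 were called in at least 1 alternative. The direction of Kcnn1 turned under median-of-ratios scaling (-0.0583) and quantile normalization (-0.13), and that of Kcnab2 under quantile normalization (-0.17) and without COM 3, its log2 changes running from -0.20 to 1.10 as each library was left out. The causes were not tested. Across all tested genes 2860 were raised and 1177 lowered, against 1724 and 2018 under median-of-ratios scaling, 1715 raised under quantile normalization, and 1460 and 708 at a threshold of 0.01. Raised Kcn genes numbered 11 without a filter, which tests more genes, and 7 on the scaled signal columns. The median log2 change of tested Kcn genes was -0.21 under median-of-ratios scaling, -0.29 under quantile normalization and 0.21 without a filter. Leaving out 1 library at a time gave 3 to 6 Kcn genes raised and 5 to 7 lowered, 2029 to 2786 and 817 to 1090 of all genes, Kcn medians from -0.17 to -0.00537, and -0.72 to -0.68 for Fbxw7. A replicate block by the number in the titles gave 4 Kcn genes raised and 6 lowered, and 2655 and 1173 of all genes. Whether the numbers pair the libraries was not settled. Same-numbered deviations correlated at -0.0659, 0.20 and 0.18. MKO 2 and MKO 3 correlated best with the COM library of the same number, and MKO 1 with COM 3 (0.11). Genes under about 1 FPKM rest on few fragments in the shallower MKO libraries.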
